A study of Mus musculus with 12 samples.

Results

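Smooth muscle cells and pericytes are the mural cells that wrap blood vessels, and 8 genes listed as their markers were followed here in mouse oral tumours. The genes were Acta2, Myh11, Cnn1, Tagln, Smtn, Rgs5, Cspg4 and Mustn1, and every array probe whose platform symbol was one of them was taken. This gave 14 probes among the 25697 on the array, and 5 of the 8 genes, with 11 probes, passed the filter on detection. The tumours were 6 labelled KHR-NICD and 6 labelled KHR. The host mice were F1 animals of FVB and C57BL/6, and tumours were collected after 21 days of growth. NICD is the usual name for the intracellular domain of a Notch receptor, its signalling fragment. The labels do not spell out KHR, do not say which cells carry NICD or what drives it and tie no tumour to an animal, beyond numbering the biological replicates. The p-values therefore measure the spread between these tumours. Bulk tumour RNA cannot tell fewer cells of a type from less RNA per cell.

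Mural cells contract through an actin and myosin apparatus that is built from dedicated smooth muscle isoforms. In many vessels their contractile genes are switched on by serum response factor with its partner myocardin, and Notch ligands on endothelial cells help mural cells to mature. Pericytes, which sit on the smallest vessels, carry less of this apparatus and are recognised by surface and signalling proteins instead. Acta2 is also made by activated fibroblasts, and several muscle genes are shared with skeletal muscle, which lies close to the oral epithelium.

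Each array detected between 43.6% and 48.1% of all probes, with median signals from 140 to 178. All 10 keratinocyte markers of the list used here were measured, with mean log2 levels from 11.74 to 11.97 in KHR-NICD tumours and from 11.79 to 12.17 in KHR tumours. Eif2s3y, a gene of the Y chromosome, was detected in KHR-NICD tumours 1 and 4 and in KHR tumours 4, 5 and 6. Skeletal muscle genes differed widely between tumours of the same group. The mean log2 level of the 15 measured of 20 listed muscle genes ran from 7.45 through a median of 8.78 to 9.71 in KHR-NICD tumours, against 7.06, 8.75 and 10.39 in KHR tumours. Among that list Myh7 was detected on 0 arrays.

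The label of smooth muscle was only partly borne out by its defining genes. Myh11, the smooth muscle myosin heavy chain, has 1 probe, which was detected in 0 of 6 KHR-NICD and 0 of 6 KHR tumours, with a lowest detection p of 0.284 and 0.198. Cnn1, the actin-binding calponin of differentiated smooth muscle, has 1 probe, also detected in 0 of 6 KHR-NICD and 0 of 6 KHR tumours, with a lowest detection p of 0.341 and 0.167. Tagln, the actin-bundling transgelin, has 1 probe, detected in 0 of 6 KHR-NICD and in 1 of 6 KHR tumours, KHR tumour 5 at a detection p of 0.0388. Its level there was 5.44 on the log2 scale, and the KHR mean lay below the lowest level counted as above background, so no fold is given. From 25 to 47 beads per array stood behind these 3 probes. Whether each of these single probes can report its transcript was not tested. Of the 14 other contractile genes with a probe, Lmod1, Synpo2, Ppp1r14a and Kcnmb1 were also detected on 0 arrays. The other 10 passed the filter, with Cald1 detected on 9 arrays and the rest, such as Actg2, Mylk and Hspb6, on 12. The myocardin gene Myocd was detected on 1 array at most.

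Acta2, the smooth muscle actin and the most widely used of these markers, was detected by 4 of 4 probes in all 12 tumours. Whether these probes also read the transcripts of other actins was not tested. By probe ILMN_2693895 its log2 level ran from 11.41 through a median of 11.82 to 12.37 in KHR-NICD tumours, against 11.74, 12.12 and 12.46 in KHR tumours. The lowest values were those of KHR-NICD tumours 2 and 5, which lay below every KHR tumour, while KHR-NICD tumour 4 lay near the top of the KHR range. The means were 11.82 ± 0.35 in KHR-NICD and 12.08 ± 0.25 in KHR tumours (SD, n = 6 each), and the groups overlapped. The difference, KHR-NICD minus KHR, was -0.26 on the log2 scale (standard error 0.16, limma adjusted p = 0.527). Its 95% interval, from -0.61 to 0.09, spans ratios of KHR-NICD to KHR from 0.655 to 1.07. The other 3 Acta2 probes gave -0.21, -0.29 and -0.17, so all 4 pointed the same way and none passed (limma adjusted p from 0.527 to 0.796). Over the 12 tumours the 6 pairs of Acta2 probes had Pearson correlations from 0.594 to 0.932, with Spearman values from 0.462 to 0.937. By Pearson r 5 of the 6 pairs passed, and the pair ILMN_2923445 and ILMN_2710353 did not (permutation p = 0.0420, adjusted p = 0.0933). By Spearman rho that pair and both pairs at a permutation adjusted p of 0.0647 did not pass.

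Smtn encodes smoothelin, a cytoskeletal protein of contractile smooth muscle, and its 3 probes were detected in all 12 tumours. By probe ILMN_2695181 its log2 level ran from 11.10 through a median of 11.38 to 11.77 in KHR-NICD tumours, against 10.84, 11.41 and 12.01 in KHR tumours. The KHR tumours fell into a higher part, tumours 1 to 3 at 11.67 or above, and a lower part, tumours 4 to 6 at 11.15 or below, and all KHR-NICD tumours lay within the KHR range. The means were 11.39 ± 0.25 in KHR-NICD and 11.42 ± 0.52 in KHR tumours (SD, n = 6 each). The difference was -0.03 with a standard error of 0.21 and a 95% interval from -0.49 to 0.42 (limma adjusted p = 0.968). The other 2 probes gave -0.11 and -0.04. Correlations between the 3 Smtn probes ran from 0.732 to 0.987 (Spearman 0.762 to 0.986, permutation with adjusted p of 0.0205 or below).

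Rgs5, which shortens signalling through G proteins and is a standard pericyte marker, was detected by its single probe in all 12 tumours. Its log2 level ran from 6.75 through a median of 7.44 to 7.78 in KHR-NICD tumours, against 6.79, 7.49 and 7.78 in KHR tumours. In each group a single tumour stood low, KHR-NICD tumour 2 and KHR tumour 1, and the remaining values overlapped. The means were 7.38 ± 0.36 in KHR-NICD and 7.41 ± 0.35 in KHR tumours (SD, n = 6 each). The difference of -0.03 had a 95% interval from -0.43 to 0.37 (limma adjusted p = 0.962), which spans ratios from 0.741 to 1.29.

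Cspg4, the NG2 proteoglycan on the surface of pericytes and of some glial precursors, varied least among the detected markers. Its log2 level ran from 6.10 through a median of 6.27 to 6.51 in KHR-NICD tumours, against 6.17, 6.33 and 6.55 in KHR tumours. KHR-NICD tumours 5 and 6 lay below every KHR tumour and the other 4 inside the KHR range. The difference was -0.07 with a standard error of 0.10 and a 95% interval from -0.29 to 0.14 (limma adjusted p = 0.805).

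Mustn1 encodes a small nuclear protein of muscle and skeleton, and both of its probes were detected in all 12 tumours. By probe ILMN_2658461 its log2 level ran from 7.02 through a median of 7.91 to 8.64 in KHR-NICD tumours, against 7.20, 7.58 and 9.16 in KHR tumours. It was highest in KHR tumour 1 and KHR-NICD tumour 3 and lowest in KHR-NICD tumours 4 and 2, so both groups held high and low tumours. The means were 7.80 ± 0.67 in KHR-NICD and 7.91 ± 0.75 in KHR tumours (SD, n = 6 each). The difference was -0.11 with a 95% interval from -0.89 to 0.66 (limma adjusted p = 0.931). Probe ILMN_2797928 gave -0.41, from -1.36 to 0.53 (limma adjusted p = 0.738), and the probes correlated at 0.944 (Spearman 0.909, permutation adjusted p = 0.000133).

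**Figure D1:**
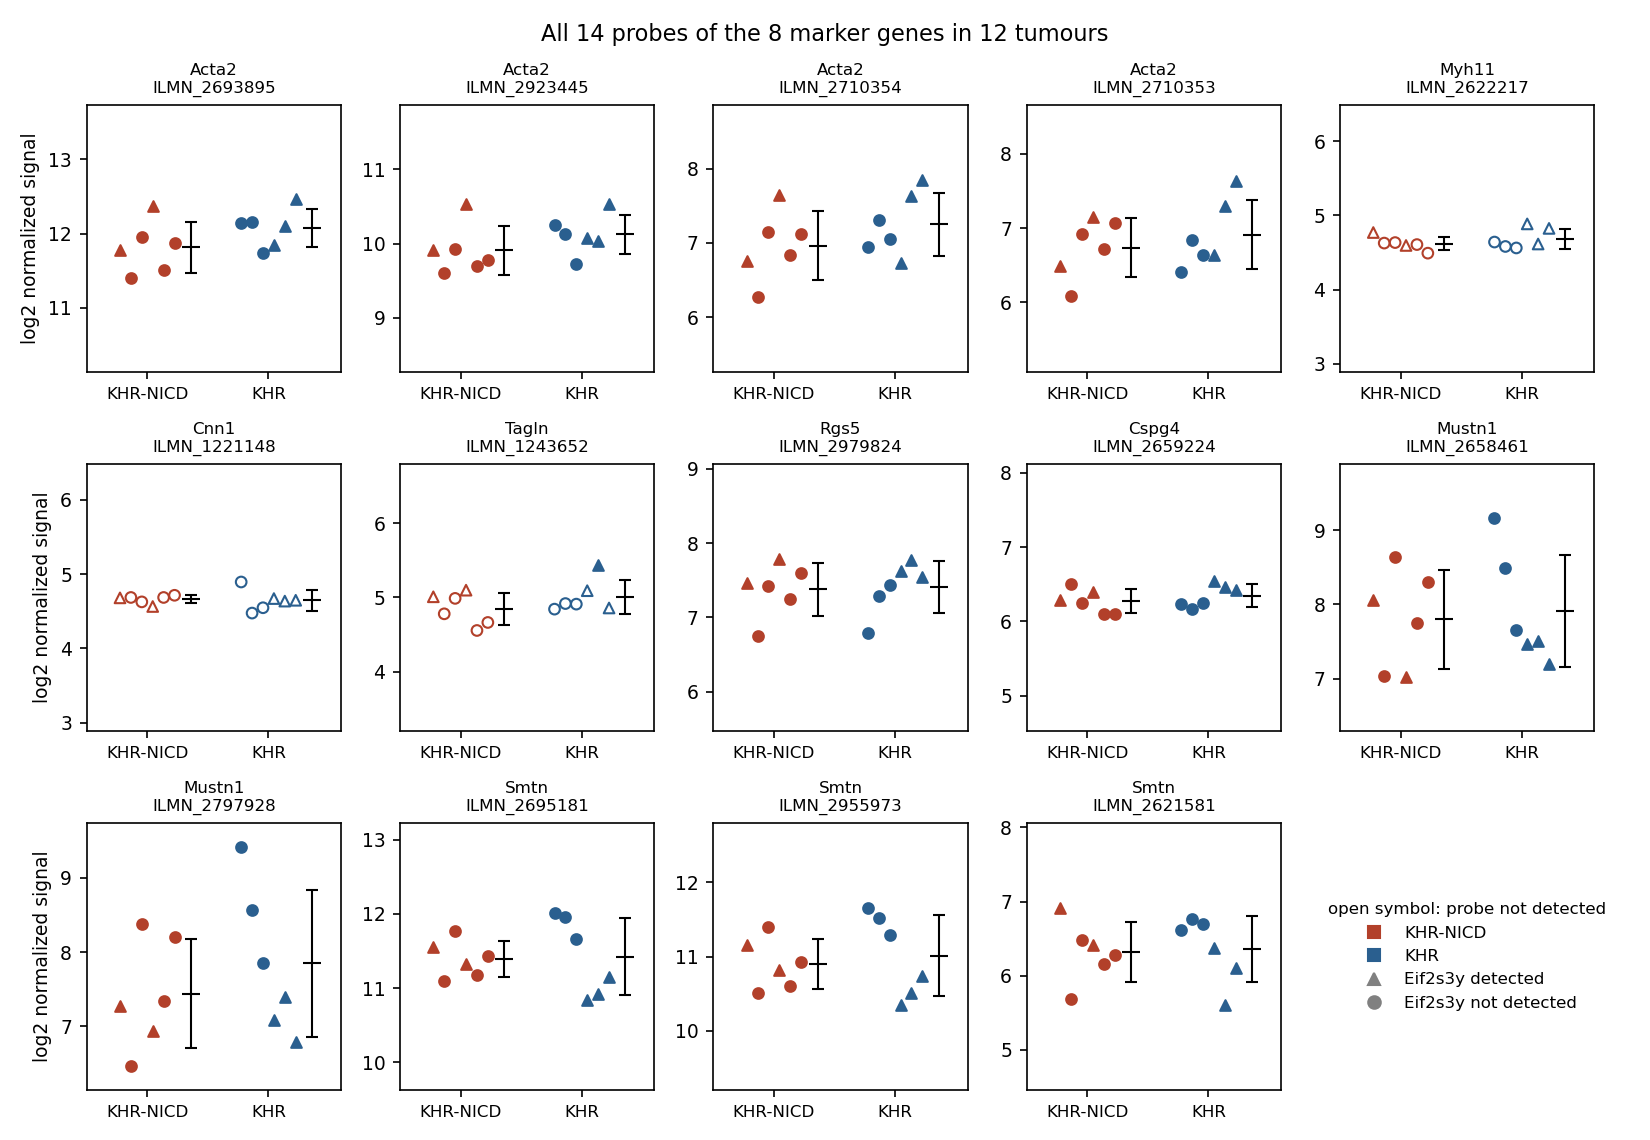
Log2 normalized signal (vertical axis, 3.6 units in each panel) of all 14 probes in the 6 KHR-NICD (red) and 6 KHR (blue) tumours. Triangles mark tumours with Eif2s3y detected, open symbols a probe that was not detected, and black bars the mean ± SD. The groups overlap in every panel, and Mustn1 spreads most.

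No marker passed the test between the tumour types. Of the 11 measured probes limma called 0 (adjusted p under 0.05), against 0.0683% of all 11721 probes (0.0256% higher and 0.0427% lower in KHR-NICD), and 0 had an unadjusted p under 0.05, against 13.2% of all probes. With 1 probe per gene limma also called 0 of 5 genes, against 0.202% of all genes. The groups did not overlap for 0 of the 11 probes, against 1.37% of all probes. All 11 differences were negative, from -0.41 to -0.03, with 48.6% of all probes negative. Several of these probes read the same transcript, so they are not separate observations. The median over the 5 measured genes was -0.07, beside 0.005 over all 8420 genes. The 95% intervals reached from -1.36 to 0.66, so a change of moderate size in Mustn1 was not detectable with this number of tumours.

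**Figure D2:**
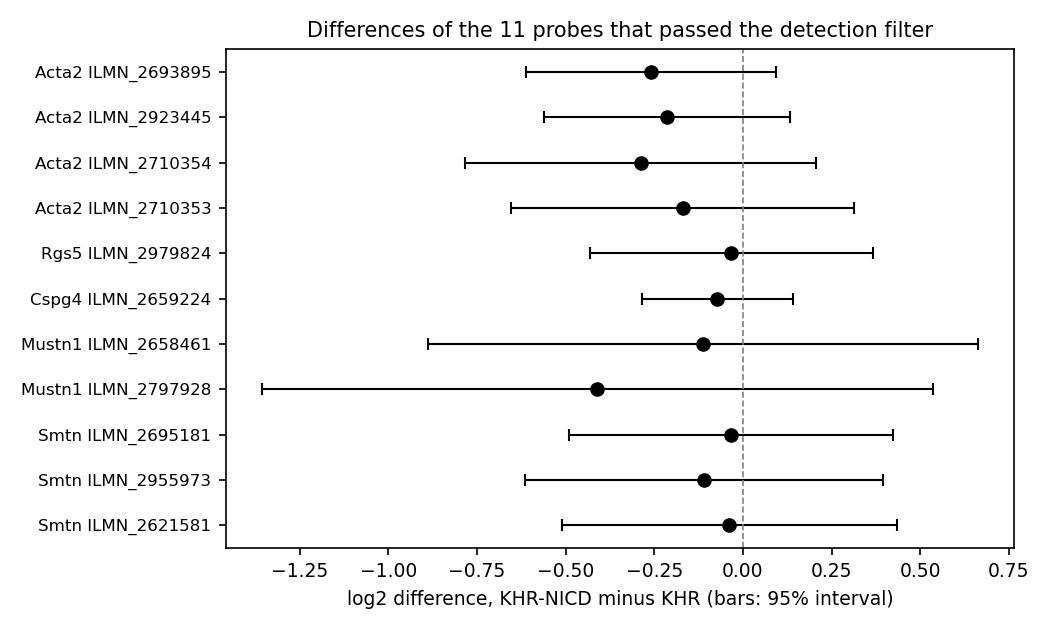
Log2 difference, KHR-NICD minus KHR, of the 11 probes that passed the detection filter (horizontal axis), with 95% intervals from limma. All points lie at or left of -0.03, and every interval crosses 0.

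Few of the markers varied together over the 12 tumours. Among the 10 pairs of measured genes, Mustn1 and Smtn were the pair that passed by Pearson r, with Pearson r = 0.793 and Spearman rho = 0.776 (permutation adjusted p = 0.0111 and 0.0162 over 40 relations). The value was 0.804 within the 6 KHR-NICD tumours (exact permutation p = 0.0597) and 0.834 within the 6 KHR tumours (exact permutation p = 0.0236). It was 0.656 without the 2 tumours farthest from the median of Mustn1, and 0.828 in the 7 tumours without Eif2s3y (exact permutation p = 0.0236). In the 5 tumours with Eif2s3y it was 0.330, and here and below values over these 5 are descriptions with no test. Cspg4 ran against both, at r = -0.655 with Mustn1 and -0.649 with Smtn. These pairs passed by Spearman rho, -0.711 and -0.697 (permutation adjusted p = 0.0375 and 0.0419), and not by Pearson r (permutation adjusted p = 0.0601 and 0.0642). The 40 relations include 10 pairs of probes of the same gene, 9 of which passed by Pearson r. Such passes ease the adjustment of the other relations. The adjustment was not repeated without those 10, so whether the narrow passes by Spearman rho hold was not tested. The raw signal of Cspg4 ran only from 187 to 240, where array medians ran from 140 to 178. Both Cspg4 relations were computed under quantile normalization only, so whether they rest on it was not tested. Acta2 had r = 0.061 with Mustn1 and 0.170 with Smtn (Spearman 0.035 and 0.210, permutation adjusted p of r = 0.851 and 0.679). In the 7 tumours without Eif2s3y these were 0.911 and 0.946 (exact permutation p = 0.00417 and 0.00317, not adjusted, with both tumour types pooled). In the 5 tumours with Eif2s3y they were -0.850 and -0.018. The difference between the sets was not tested. Rgs5 and Cspg4, the pericyte markers, had r = 0.146 with each other (Spearman 0.326, permutation adjusted p = 0.718). That r was 0.692 without the 2 tumours farthest from the median of Rgs5. It was -0.383 in KHR-NICD (exact permutation p = 0.458) and 0.713 in KHR tumours (exact permutation p = 0.0806). Without Eif2s3y it was -0.665 (exact permutation p = 0.101), and with it 0.470. Rgs5 had r = -0.915 with Mustn1 and -0.851 with Smtn in KHR tumours, against 0.289 and 0.508 in KHR-NICD tumours.

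The promoters of Acta2, Smtn and Mustn1 are shown because Smtn and Mustn1 varied together over the 12 tumours, while Acta2 did not vary with them over all 12. Each window runs from 250 bases before to 50 after the start assigned to it, from RefSeq on GRCm38.p6, written 5′ to 3′ along the gene's strand. For Smtn and Mustn1 that start is the 5′ end of the listed gene. The listed Acta2 gene has its 5′ end at base 34255585, inside the window. Positions in Acta2 therefore count from a start within the listed gene. Capitals mark matches to the RBPJ core TGGGAA, the letters bound by the DNA-binding partner of NICD, and to the MCAT element CATTCC, the letters bound by TEAD factors in muscle genes, read on both strands. The Acta2 window is chr19:34255324-34255623, minus strand, the Smtn window chr11:3539243-3539542, minus strand, and the Mustn1 window chr14:30879007-30879306, plus strand.
Acta2: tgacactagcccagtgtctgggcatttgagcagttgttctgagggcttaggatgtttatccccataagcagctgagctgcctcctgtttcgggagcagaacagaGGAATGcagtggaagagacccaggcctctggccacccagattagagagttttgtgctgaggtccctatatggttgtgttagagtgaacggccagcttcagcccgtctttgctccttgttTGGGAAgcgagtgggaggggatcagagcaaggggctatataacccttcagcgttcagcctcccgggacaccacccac
Smtn: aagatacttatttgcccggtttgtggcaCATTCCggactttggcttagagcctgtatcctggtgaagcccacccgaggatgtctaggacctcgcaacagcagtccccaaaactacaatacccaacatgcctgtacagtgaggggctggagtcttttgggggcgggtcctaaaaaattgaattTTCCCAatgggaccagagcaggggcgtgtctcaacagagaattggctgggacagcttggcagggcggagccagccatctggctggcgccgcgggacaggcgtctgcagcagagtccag
Mustn1: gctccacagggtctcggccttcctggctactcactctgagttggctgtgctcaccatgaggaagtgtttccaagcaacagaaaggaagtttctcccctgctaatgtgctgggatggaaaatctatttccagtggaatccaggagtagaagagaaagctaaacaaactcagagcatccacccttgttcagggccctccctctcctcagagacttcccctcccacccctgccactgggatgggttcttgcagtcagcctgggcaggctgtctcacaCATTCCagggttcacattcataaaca
The RBPJ core was found in the Acta2 window, from -27 to -22 bases from the start, and in the Smtn window, from -68 to -63. MCAT was found at -146 to -141 in Acta2, -222 to -217 in Smtn and 24 to 29 in Mustn1. Among the 6 markers with a window in the table, 2 held the RBPJ core and 3 held MCAT, against 25.6% and 14.7% of all 32851 windows. An exact CArG box, the motif of serum response factor, was in 0 of the 6, against 1.63% of all windows. Sites that differ from the exact pattern were not searched for, so this count does not show that such sites are missing. In the Acta2 window ccctatatgg and ccttgttTGG each differ from it by a single letter, and the latter shares letters with the marked RBPJ core. These letter matches describe the windows only, and no marked match overlapped another.

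Mustn1 and Smtn followed the skeletal muscle genes. Mustn1 had r = 0.874 and Spearman rho = 0.874 with the skeletal muscle score, the mean log2 level of the 15 muscle genes (permutation adjusted p = 0.0016 and 0.00328). The value was 0.879 without the 2 tumours of most extreme score. Within the groups it was 0.887 in KHR-NICD tumours (exact permutation p = 0.0264, n = 6) and 0.885 in KHR tumours (exact permutation p = 0.0111, n = 6). In the 7 tumours without Eif2s3y it was 0.922 (exact permutation p = 0.00476), and in the 5 with it 0.668. For Smtn r was 0.829 and rho 0.846 (permutation adjusted p = 0.0074 and 0.0059), and 0.709 without the 2 most extreme tumours. Within the groups Smtn gave 0.519 in KHR-NICD tumours (exact permutation p = 0.30, n = 6) and 0.927 in KHR tumours (exact permutation p = 0.0125, n = 6), and it gave 0.883 in the 7 tumours without Eif2s3y (exact permutation p = 0.00456) and 0.399 in the 5 with it. With the muscle score as a covariate the difference between the tumour types was -0.05 for Mustn1 by ILMN_2658461 (standard error 0.18, limma adjusted p = 0.923). By the other Mustn1 probe, ILMN_2797928, it was -0.33 (standard error 0.19, limma adjusted p = 0.413). For Smtn by ILMN_2695181 it was 0.0003 (standard error 0.13, limma adjusted p = 1.00), and the other 2 Smtn probes gave -0.07 and -0.02.

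Cspg4 ran the other way, at r = -0.784 and rho = -0.785 (permutation adjusted p = 0.0144 and 0.0162), and r = -0.763 without the 2 most extreme tumours. Within the groups it was -0.767 in KHR-NICD tumours (exact permutation p = 0.0819, n = 6) and -0.911 in KHR tumours (exact permutation p = 0.0264, n = 6), and in the 7 tumours without Eif2s3y -0.579 (exact permutation p = 0.177). In the 5 with it the value was -0.592. With median centring in place of quantile normalization it was -0.305 (permutation p = 0.332), so the relation of Cspg4 rests on the normalization. Rgs5 had r = -0.447 with the muscle score (Spearman -0.615, permutation adjusted p = 0.244 and 0.0833).

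Acta2 did not follow the muscle score over all tumours, at r = -0.083 and rho = -0.035 (permutation adjusted p = 0.817 and 0.945). Within the 7 tumours in which Eif2s3y was not detected r was 0.898 (exact permutation p = 0.00317), and in the 5 in which it was r was -0.319. Acta2 did follow the other contractile genes, with r = 0.833 and rho = 0.867 to their mean (permutation adjusted p = 0.00229 and 0.00427), 0.608 without the 2 most extreme tumours. Within the groups this was 0.814 in KHR-NICD tumours (exact permutation p = 0.0458, n = 6) and 0.891 in KHR tumours (exact permutation p = 0.0181, n = 6). In the 7 tumours without Eif2s3y it was 0.918 (exact permutation p = 0.00556), and in the 5 with it 0.803. The relation of the markers to the fibroblast and endothelial scores did not pass for any of the 5 genes, with Smtn nearest at r = 0.635 to fibroblasts (Spearman 0.643, permutation adjusted p = 0.0644 and 0.0649).

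**Figure D3:**
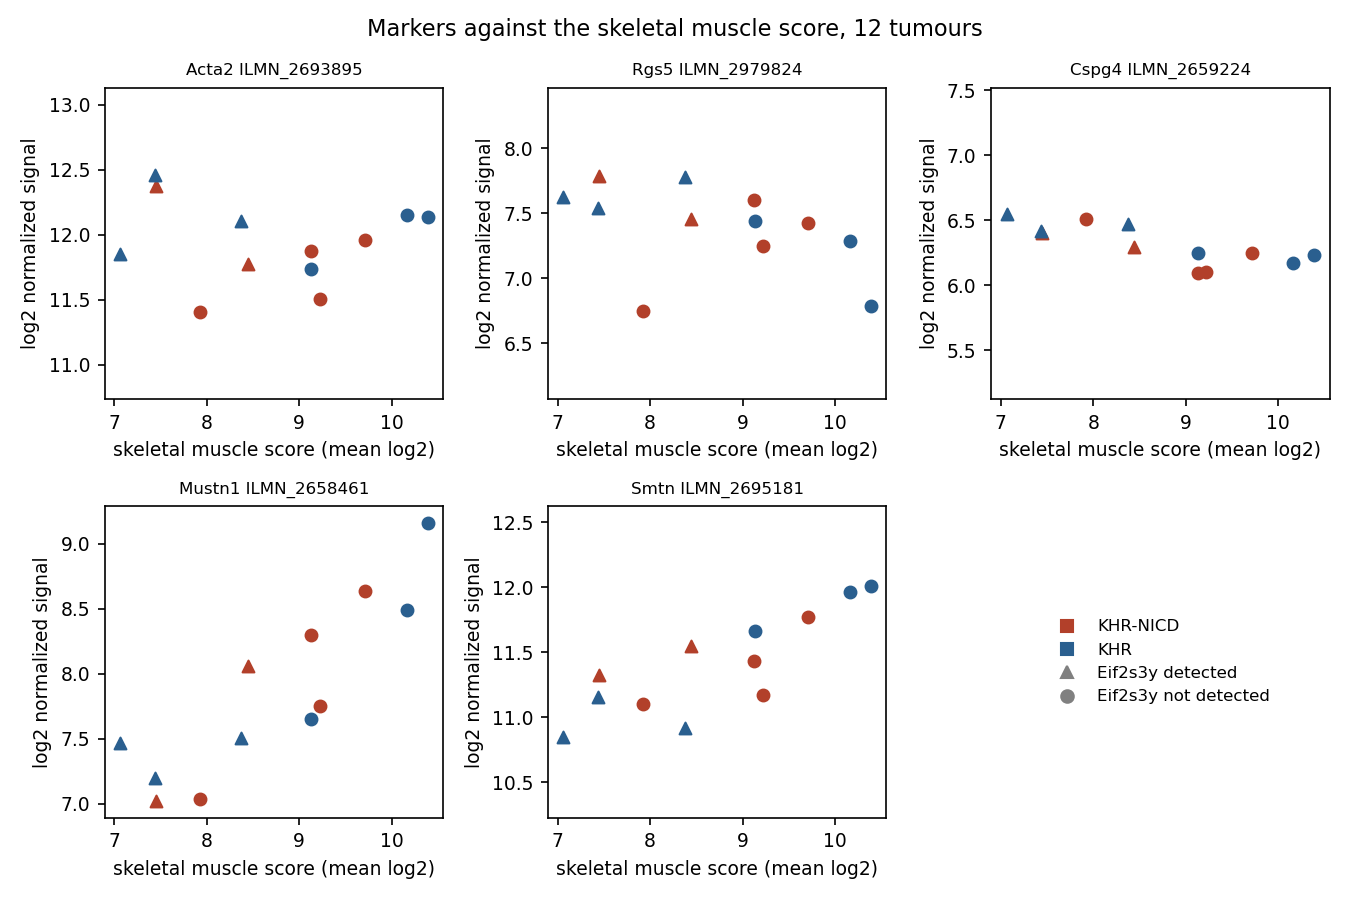
Log2 normalized signal of the 5 measured markers (vertical axes, 2.4 units each, 1 probe per gene) against the mean log2 level of 15 skeletal muscle genes (horizontal axis) in 6 KHR-NICD (red) and 6 KHR (blue) tumours, with triangles for Eif2s3y detected. Mustn1 and Smtn rise along the axis, Cspg4 falls slightly under this quantile normalization and Acta2 shows no slope over all 12.

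The tumours with and without Eif2s3y gave different signs for Smtn. In the 5 with Eif2s3y, by probe ILMN_2695181, 2 KHR-NICD tumours averaged 11.44 and 3 KHR tumours 10.97, a difference of 0.47. In the 7 without it, 4 KHR-NICD tumours averaged 11.37 and 3 KHR tumours 11.88, a difference of -0.51. Neither difference passed (limma adjusted p = 0.119 and 0.233). The test of the difference between the sets did not pass either, at limma adjusted p from 0.107 to 0.117 over the 3 Smtn probes. Mustn1 gave 0.15 with and -0.50 without Eif2s3y (limma adjusted p of the difference between the sets 0.616). Acta2 by ILMN_2693895 gave -0.06 and -0.33, Cspg4 -0.13 and 0.02, and Rgs5 -0.03 and 0.08. KHR tumours with Eif2s3y are also those numbered 4 to 6. Their skeletal muscle scores were 7.06, 8.37 and 7.44, against 10.39, 10.16 and 9.13 in KHR tumours 1 to 3. In that group Eif2s3y, replicate number and a low muscle score therefore cannot be told apart.

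By Pearson r over the 12 tumours and 8415 other genes, the genes most like each marker fell into different kinds. Mustn1 lay nearest to Ankrd1 and Csrp3, stretch-responsive genes of striated muscle, and Des, the muscle intermediate filament desmin, at r = 0.962, 0.940 and 0.934. Smtn lay nearest to Vdr, the vitamin D receptor, Myoz2, a protein of the striated muscle Z-disc, and Aplp2, at r = 0.959, 0.935 and 0.933. Acta2 lay nearest to Smim15, Spon2 and Pomt2 at r from 0.868 to 0.874. Rgs5 lay nearest to Bnip2, Ncoa4 and Vti1b at r from 0.914 to 0.935. Cspg4 lay nearest to Ltbp1, which stores latent TGF-beta in the matrix, Esm1, a secreted product of endothelial cells, and Tmem25, at r from 0.882 to 0.897. These are the highest of 8415 values each, so they describe likeness only.

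Other genes listed for the mural cell programme showed the same lack of calls, and which cells of the tumour gave their signal was not tested. Of 16 other contractile genes 10 were measured, and 0 rose, 0 fell and 10 did not pass. Their median difference was -0.16 and all 10 values were negative, from -0.33 to -0.10, with 4115 of all 8420 genes negative. Vcl, which links actin to adhesions, stood at -0.33 (standard error 0.11, limma adjusted p = 0.235), Actn1, which crosslinks actin, at -0.21, Cald1, a caldesmon that restrains actomyosin, at -0.29 and Csrp1 at -0.17. Vcl and Actn1 had an unadjusted p under 0.05 by limma, 2 of 10 against 13.2% of all probes. Vcl passed with Eif2s3y detection as a covariate, at -0.37 (limma adjusted p = 0.0415), a setting in which 239 of the 11721 probes passed, against 8 without the covariate. It did not pass with the muscle score added to that covariate, at -0.38 (limma adjusted p = 0.0526).

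Of 16 other pericyte and mural cell genes 8 were measured, and 0 rose, 0 fell and 8 did not pass, with a median of -0.07. Of these 8 genes 6 were negative and 2 positive. By limma 1 of the 8, Mcam, had an unadjusted p under 0.05, against 1148 of all 8420 genes. Mcam, an adhesion molecule shared by pericytes and endothelium, stood at -0.41 (standard error 0.16, limma adjusted p = 0.299), Notch3, the Notch receptor of mural cells, at -0.13, Gucy1a1, a subunit of the nitric oxide receptor, at 0.08, and Anpep, a membrane peptidase detected in 4 KHR-NICD and 3 KHR tumours, at -0.29. Cox4i2, Vtn and S1pr3 were detected on 0 arrays. Of 17 ligands, receptors and transcription factors that recruit mural cells or drive their genes 12 were measured, and 0 rose, 0 fell and 12 did not pass, with a median of -0.14. Of these 12 genes 11 were negative and 1 positive, with 4115 of all 8420 genes negative. Smad3, which carries TGF-beta signals to the nucleus, stood at -0.19, Pdgfb, the growth factor that draws pericytes to endothelium, at -0.23, Tek, the endothelial receptor for angiopoietins, at -0.21, and Srf, the serum response factor, at -0.19. Angpt1, which mural cells make as a ligand of Tek, was detected on 0 arrays.

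Markers of neighbouring cell types are given for scale, with 0 genes called in each list. Over all 8420 genes 4305 were positive and 4115 negative, and by limma 1148 had an unadjusted p under 0.05. Fibroblast markers had a median difference of 0.14 over 13 measured of 16 listed genes, with mean log2 levels from 8.05 to 8.65 in KHR-NICD and from 7.82 to 8.51 in KHR tumours, and Postn detected on 0 arrays. Of these 13 genes 11 were positive, and by limma 3 that stood higher and 1 that stood lower had an unadjusted p under 0.05. They were the collagens Col3a1 at 0.54 and Col1a2 at 0.44, the matrix proteoglycan Lum at 0.80, and Fbln1 at -0.20 (limma adjusted p from 0.235 to 0.354). Endothelial markers had a median of -0.11 over 12 of 16 genes, with levels from 7.39 to 8.04 in KHR-NICD and from 7.34 to 8.15 in KHR tumours, and Erg detected on 0 arrays. Of these genes 9 were negative and 3 positive. By limma 1 of the 12, Vwf, had an unadjusted p under 0.05, and it stood higher, at 0.58 (limma adjusted p = 0.229). Skeletal muscle markers had a median of -0.04 over 15 genes. Keratinocyte markers had a median of -0.08 over 10 genes, and by limma 2 of them had an unadjusted p under 0.05. Cdh3 stood at -0.48, with groups that did not overlap, and Dsg3 at -0.68 (limma adjusted p = 0.0744 and 0.126). Of the 6 adipocyte markers 6 were detected on 0 arrays, and of 9 salivary gland genes with a probe 6 were, among them Amy1 and Pip. The 2 measured salivary genes went opposite ways. Aqp5, detected on 12 arrays, stood at 0.85 (limma adjusted p = 0.0840), and its groups did not overlap, as for 1.37% of all probes. Lpo, detected on 10 arrays, stood at -0.88 (limma adjusted p = 0.488). Schwann cell markers had 3 measured of 8 listed genes, all 3 negative, with a median of -0.23. By limma 1 of the 3, Mbp at -0.27, had an unadjusted p under 0.05 (limma adjusted p = 0.264). The part of these cell types in the differences of the markers, other than skeletal muscle, was not tested.

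**Figure D4:**
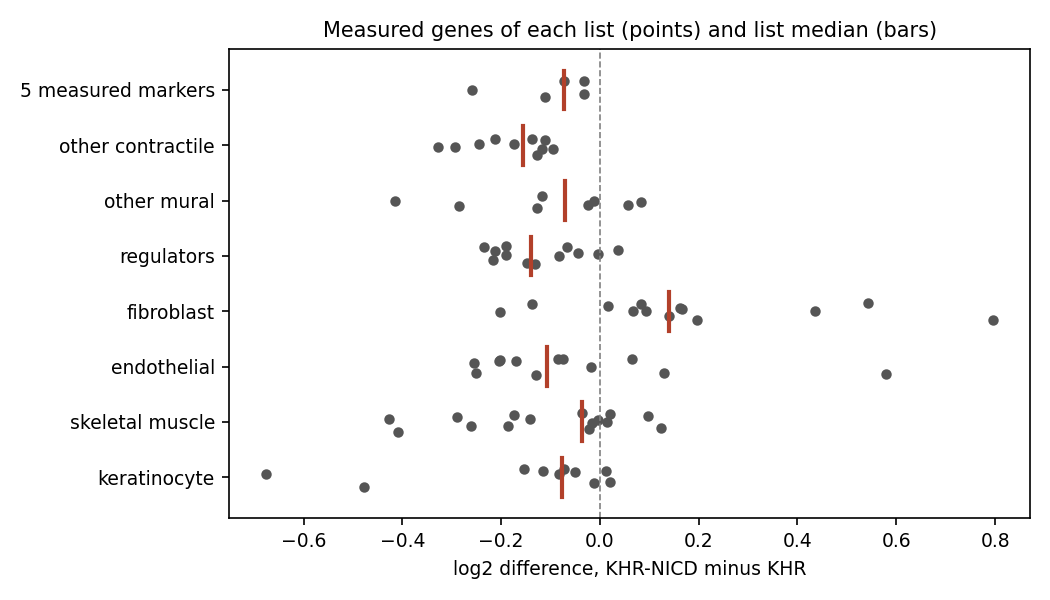
Log2 difference, KHR-NICD minus KHR, of the measured genes of 8 lists (points, 1 probe per gene) with the median of each list (red bars). The 5 measured markers lie between -0.26 and -0.03, beside contractile genes that are all below 0 and fibroblast genes with a median of 0.14.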

How the data were processed

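Total RNA of 12 tumours was measured on Illumina MouseRef-8 v2 bead arrays, 1 per tumour. Per the file headers, the authors deposited for each probe a mean bead intensity, a detection p-value, the number of beads and their standard error. The authors' processed intensity values, deposited separately, served only as an alternative. GenomeStudio and Partek appear in the submitters' processing notes. Other steps were not given in the sources used here.

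Platform annotation gave 1 gene for 23978 of 25697 probes, several for 0 and did not list 1719, and symbols were updated through Entrez identifiers for 23962. Signals were corrected by the neqc function (limma 3.58.1, R 4.3.3; background from the detection p-values, offset 16, quantile normalization, log2). Probes detected (p under 0.05) on at least 6 of 12 arrays were kept, 11721 in all, of 8420 genes. KHR-NICD minus KHR was fitted on all of them with lmFit and eBayes, with no block and Benjamini-Hochberg adjustment. A gene with several probes is counted in lists by the probe of highest mean. The fit was tested on simulated data. Correlations used two-sided permutation tests, exact for n under 10 and otherwise with 100000 resamples. Values called adjusted were adjusted over 40 relations, and exact p-values were not adjusted. Tests over all tumours or over those without Eif2s3y permuted both tumour types together, so a difference between the types can enter r.

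The members and lists were chosen with earlier results of these data known. Named genes were the 8 markers, up to 4 of each list by smallest p, the 3 most alike genes per marker, and those that were not detected, chosen after their values were seen. The relations to the contractile genes and between probes of a gene were added after seeing the data, as were the tests between the sets with and without Eif2s3y. Alternatives covered values, background, normalization, filters, probes, variance models, weights, a replicate block, covariates and left-out tumours. The number of arrays limits the precision, with a median standard error of 0.129 (log2) over the kept probes. No 2 arrays held identical signals.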

Additional observations from a re-analysis of the deposited data

Results flagged for a closer look

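KHR-NICD tumour 4 stood apart from the other KHR-NICD tumours in Acta2 by probe ILMN_2923445, at a log2 level of 10.53, with the nearest tumour at 9.93. The gap was 0.648 of the range of the group, above Dixon's 95% critical value for 6 values. Of 36 sets of 6 values examined this was the only 1, and chance marks about 1 in 20. Eif2s3y was detected in that tumour. The other 3 Acta2 probes were also highest there among KHR-NICD tumours, with smaller gaps.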

How the results depend on the processing

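Limma called 0 member probes under each of the 31 alternatives, the replicate block included, with a lowest adjusted p of 0.119 (Smtn, tumours with Eif2s3y). The median difference of the measured markers was -0.33 in the 7 tumours without Eif2s3y and between -0.15 and 0.025 with each tumour left out. Small differences changed sign. In the tumours with Eif2s3y alone they were 0.0072 for Acta2 (ILMN_2923445), 0.15 and 0.025 for Mustn1, 0.47, 0.45 and 0.63 for Smtn, and 0.20 for Anpep. In those without it they were 0.068 for Acta2 (ILMN_2710353), 0.083 for Rgs5, 0.022 for Cspg4 and -0.016 for Gucy1a1. Array weights gave 0.28 and 0.12 for Mustn1, 0.15, 0.070 and 0.050 for Smtn and 0.37 for Anpep. Eif2s3y as a covariate gave 0.038 for Rgs5, the muscle score 0.00030 for Smtn, and both together 0.055 for Rgs5, 0.048 for Mustn1 and 0.027 and 0.058 for Smtn. With each tumour left out, Rgs5 ran from -0.16 to 0.093, Mustn1 (ILMN_2658461) from -0.28 to 0.14, and the Smtn probes from -0.15 to 0.083, -0.24 to 0.019 and -0.19 to 0.088. The causes were not tested.

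Of the other lists 0 genes passed in the main setting and with each tumour left out. The count was 1 with median centring (Dsg3) and 1 with the mean of a gene's probes (Aqp5), 3 with array weights, 2 at an adjusted p under 0.1, 4 with Eif2s3y as a covariate, 3 with the muscle score and 2 with both. Median centring also moved the median of all probes to -0.08. Same-numbered tumours had correlations of deviations from -0.196 to 0.442. Tumours of different numbers were not compared, so these values cannot decide whether the numbers pair tumours. Over all probes 8 passed in the main setting, 0 with the replicate block, 125 with array weights, 239 with Eif2s3y as a covariate, 114 with the muscle score, 189 with both and 1 to 17 with a tumour left out. Cspg4 and the muscle score correlated at -0.305 with median centring. Probes near background, such as Myh11, Cnn1 and Tagln, have no measured difference.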
